A study of Mus musculus with 6 samples.

Results

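The quiescent stellate cell markers described here are 9 genes, Lrat, Des, Reln, Rgs5, Ecm1, Colec11, Ngfr, Cygb and Adamtsl2. They were picked by gene symbol from the 22966 genes of the deposited count table, and all 9 were found there. Each was followed across 6 libraries sequenced from RNA of primary stellate cells of mouse liver, 3 titled Cre and 3 titled flox. The series describes mice in which hepatocytes lack butyrylcholinesterase, written Buche in its labels, and asks about stellate cell activation through muscarinic signalling. All 6 libraries share the genotype entry BucheHep and the treatment entry CCl4 (carbon tetrachloride, a liver toxin used to cause fibrosis), and the growth protocol names BucheΔHep mice. Cre and flox therefore differ by their titles alone. The labels give no Cre driver, no CCl4 dose or duration, no sex or age, no cell sort, no meaning for the S2W at the start of every title, and no untreated liver. Nor do they tell if replicate libraries stand for different mice, and a p-value here reflects spread among these samples that could be technical.

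Hepatic stellate cells are pericytes of the liver sinusoid that store vitamin A as retinyl esters in lipid droplets. After injury they lose the droplets, make collagen and become contractile, and genes of the storing state, called quiescent, usually decline as this happens. The 9 genes mark that state from different sides. Lrat makes the retinyl esters, Des and Cygb encode a cytoskeletal and an oxygen-binding protein inside the cell, Rgs5 and Ngfr act in signal reception, and Reln, Ecm1, Colec11 and Adamtsl2 encode secreted proteins.

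None of the 9 markers differed between Cre and flox libraries at an adjusted p below 0.05. With edgeR's quasi-likelihood test and Benjamini-Hochberg adjustment, 0 of 9 were called, against 15.3% of the 14795 genes tested. At an unadjusted p below 0.05 there was 1 marker, Cygb, against 34.8% of all tested genes. DESeq2 called that gene alone, where it called 29.3% of all genes, and limma-voom called 0 of 9, against 9.49% of all genes. All 9 passed the filter on low counts. In 0 of 9 did the Cre and flox ranges separate, against 39.6% of all tested genes. The log2 fold change, Cre over flox, was above 0 for 4 markers and below 0 for 5, and its median was -0.14, against 0.01 over all tested genes. In libraries made from bulk cells, fewer cells of a type and less RNA per cell cannot be told apart.

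The markers varied widely inside each group. Their within-group standard deviation on the log2 scale had a median of 0.91 and ran from 0.31 for Ecm1 to 1.89 for Lrat, against a median of 0.28 over all tested genes. Cre 3 held the highest of the Cre values for 8 of 9 markers, which was so for 37.2% of all tested genes, and Lrat was the exception. Flox 3 held the lowest of the flox values for 8 of 9, against 44.9% of all tested genes, and Colec11 was the exception. Both held together for 7 of 9 markers, against 18.2% of all tested genes. These counts were drawn up after the values had been seen and describe these libraries.

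**Figure D1:**
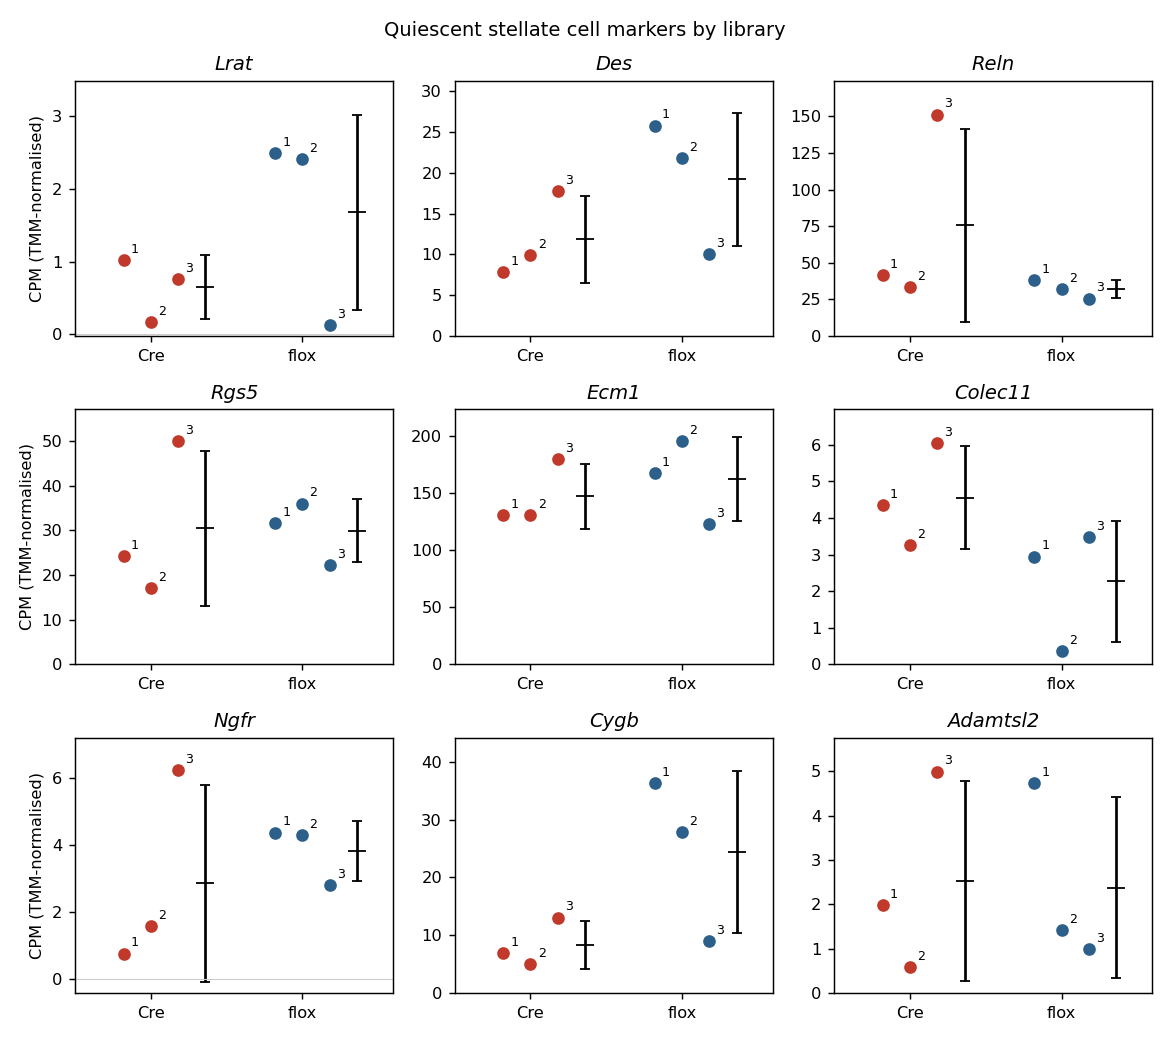
TMM-normalised counts scaled to library size (CPM, vertical axis from 0, a separate scale for each gene) of the 9 markers in each library, Cre in red on the left and flox in blue on the right. Points are single libraries labelled by replicate number and bars are the mean ± SD of 3 libraries. The groups overlap for all 9 genes, and Cre 3 is the highest Cre library in 8 panels.

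In GRCm38 with the GENCODE M21 annotation, Des lies on chromosome 1 from 75360329 to 75368579 (plus strand) and Rgs5 on the same chromosome from 169655501 to 169695813 (plus strand). Lrat lies on chromosome 3 from 82892579 to 82903973 and Ecm1 on the same chromosome from 95734147 to 95739569, both on the minus strand. Ngfr lies on chromosome 11 from 95568818 to 95587735 and Cygb on the same chromosome from 116645595 to 116654313, both on the minus strand. Reln spans chromosome 5 from 21884454 to 22344702 and Colec11 chromosome 12 from 28594173 to 28623377, both on the minus strand, and Adamtsl2 lies on chromosome 2 from 27079379 to 27108981 on the plus strand. Some exon bases are shared with other genes: 201 bases of Cygb with Prcd, 220 of Des with the antisense gene Gm15179, 246 of Reln with the antisense gene Gm10475 and 63 of Ecm1 with Mir7014. No source used here tells whether counting used strand, so reads from those stretches cannot be assigned to one gene.

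RefSeq's promoter table (GRCm38.p6) held 8 of the 9 markers, all but Cygb. The 250 bases before the start that RefSeq gives are printed for 4 of them, 5′ to 3′ on the gene's strand. RefSeq's starts can differ from GENCODE's, and 47 bases of the Colec11 stretch lie inside the GENCODE gene, against 0 for the other 3. Rgs5 and Ecm1 are shown because their profiles over the 6 libraries were the closest pair among the markers, and Lrat and Colec11 because theirs were the farthest apart. Capitals mark matches on either strand. The TATA box was searched as the letters TATAAA. For the GC box the search used the letters GGGCGG. The E-box, with N for any base, was searched as CANNTG. For the core of the AP-1 motif the letters were TGANTCA.
Rgs5 (chr1:169655251-169655500, plus strand): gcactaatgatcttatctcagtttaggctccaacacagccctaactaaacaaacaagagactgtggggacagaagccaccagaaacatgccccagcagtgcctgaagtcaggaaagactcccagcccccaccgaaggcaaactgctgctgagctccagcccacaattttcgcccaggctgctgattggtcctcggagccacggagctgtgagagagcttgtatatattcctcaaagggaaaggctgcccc
Ecm1 (chr3:95739570-95739819, minus strand): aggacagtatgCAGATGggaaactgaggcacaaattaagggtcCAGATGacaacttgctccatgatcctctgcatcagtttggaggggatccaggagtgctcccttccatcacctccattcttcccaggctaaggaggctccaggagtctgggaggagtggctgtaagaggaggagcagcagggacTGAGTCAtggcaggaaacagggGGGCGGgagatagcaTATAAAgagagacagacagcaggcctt
Lrat (chr3:82903975-82904224, minus strand): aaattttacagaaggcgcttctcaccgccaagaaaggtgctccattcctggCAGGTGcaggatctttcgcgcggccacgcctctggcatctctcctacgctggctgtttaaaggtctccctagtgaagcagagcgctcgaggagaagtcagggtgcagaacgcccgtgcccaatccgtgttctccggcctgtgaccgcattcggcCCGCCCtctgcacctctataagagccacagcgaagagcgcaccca
Colec11 (chr12:28623331-28623580, minus strand): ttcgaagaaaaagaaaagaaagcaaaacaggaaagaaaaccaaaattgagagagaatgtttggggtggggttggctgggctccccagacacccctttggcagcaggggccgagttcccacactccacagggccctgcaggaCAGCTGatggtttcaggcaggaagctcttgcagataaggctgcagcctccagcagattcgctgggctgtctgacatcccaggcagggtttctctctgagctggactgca

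The Ecm1 stretch held all 4 motifs, with the TATA box starting 27 bases and the AP-1 core 64 bases before the gene start. The Rgs5 stretch held none of the 4. Lrat had 1 GC box, read on the other strand, and 1 E-box, and Colec11 had 1 E-box alone. Over the 8 markers with an entry, the TATA box was present in 2 (Ecm1 and Adamtsl2), the GC box in 6, the E-box in 7 and the AP-1 core in 1. Among 32851 promoter stretches of the same length, 12.4% held the TATA box, 32.7% the GC box, 66.2% the E-box and 6.75% the AP-1 core. No 2 matches overlapped in the 8 stretches. A match is a run of letters and not a binding site.

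By the authors' FPKM values, which divide counts by gene length and library total, Ecm1 was the most abundant of the 9 markers in both groups, at 79.4 ± 14.2 FPKM in Cre and 78.0 ± 13.7 FPKM in flox libraries (SD, n = 3 each). In Cre libraries the order of mean levels after Ecm1 was Rgs5 (6.95 FPKM), Reln (6.76), Cygb (4.18), Des (4.05), Colec11 (1.93), Ngfr (0.872), Adamtsl2 (0.684) and Lrat (0.129). In flox libraries it was Cygb (10.8 FPKM), Rgs5 (6.09), Des (5.84), Reln (2.58), Ngfr (1.05), Colec11 (0.881), Adamtsl2 (0.576) and Lrat (0.288). Neighbours in the Cre order had overlapping ranges except Ecm1 over Rgs5 and Des over Colec11. In the flox order the ranges separated Ecm1 from Cygb, Des from Reln and Reln from Ngfr, and other neighbours overlapped. Lrat, the enzyme that defines retinoid storage in these cells, thus had the lowest mean of the 9 in both groups. In flox 2 it was at 0.408 FPKM, above Adamtsl2 (0.330) and Colec11 (0.136).

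Levels below are CPM, counts scaled to library size with TMM factors. Lrat, lecithin retinol acyltransferase, had 1.03, 0.169 and 0.758 CPM in Cre 1, 2 and 3, against 2.49, 2.41 and 0.124 CPM in flox 1, 2 and 3. Flox 1 and flox 2 were above all Cre libraries and flox 3 was below all of them, so the groups overlapped. The lowest values rest on 7 counts in Cre 2 (exact 95% Poisson interval 2.81 to 14.4) and 5 counts in flox 3 (1.62 to 11.7), which covers counting error only. The log2 fold change was -1.36 ± 1.07 (standard error), with a 95% interval of -3.90 to 1.18 and an edgeR adjusted p of 0.399. Without flox 3 it was -1.91 with an adjusted p of 0.0809. Lrat had the largest within-group spread of the 9 markers, larger than that of 99.4% of tested genes.

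Des, which encodes desmin, the intermediate filament protein of muscle and of rodent stellate cells, had 7.78, 9.90 and 17.8 CPM in Cre 1, 2 and 3, against 25.8, 21.8 and 10.05 CPM in flox 1, 2 and 3. Cre 3 was above flox 3, and otherwise every flox library exceeded every Cre library. Its log2 fold change was -0.70 ± 0.43, with a 95% interval of -1.73 to 0.34 and an edgeR adjusted p of 0.296.

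Cygb, cytoglobin, is a globin of stellate cells that binds oxygen and nitric oxide. It had 6.91, 4.996 and 13.0 CPM in Cre 1, 2 and 3, against 36.3, 27.9 and 8.93 CPM in flox 1, 2 and 3. As for Des, the overlap came from Cre 3 lying above flox 3. The mean was 8.31 ± 4.20 CPM in Cre and 24.4 ± 14.0 CPM in flox libraries (SD, n = 3 each). The log2 fold change was -1.55 ± 0.57, the 95% interval -2.91 to -0.19, and the edgeR adjusted p 0.108. Cygb was the marker whose call depended most on the method. DESeq2 gave it an adjusted p of 0.0259, where 29.3% of all genes were called and 15.9% were called lower. Leaving out flox 3 gave a log2 fold change of -1.95 and an edgeR adjusted p of 0.0141, where 34.8% of all genes were called and 18.8% were called lower. Cygb was also called under scaling to stellate lineage genes and with Cre 3 and flox 3 left out together, both described further on, and in none of the other edgeR and limma alternatives.

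Rgs5, a regulator that shortens signalling by Gi and Gq proteins and a common pericyte marker, had 24.3, 17.1 and 49.97 CPM in Cre 1, 2 and 3, against 31.6, 35.96 and 22.1 CPM in flox 1, 2 and 3. Cre 3 was the highest of all 6 libraries, and the flox values lay inside the Cre range. Its log2 fold change was 0.03 ± 0.40 (95% interval -0.94 to 0.99) with an edgeR adjusted p of 0.970. The sign turned with the setting, to -0.51 without Cre 3 and -0.62 under stellate lineage scaling.

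Ngfr encodes the low-affinity neurotrophin receptor, which has been used to mark stellate cells near the portal tract in mice. It had 0.751, 1.57 and 6.21 CPM in Cre 1, 2 and 3, against 4.36, 4.28 and 2.79 CPM in flox 1, 2 and 3. Cre 1 and Cre 2 were below all flox libraries and Cre 3 was above all of them. Its log2 fold change was -0.42 ± 0.74 (95% interval -2.18 to 1.34), with an edgeR adjusted p of 0.719. Without Cre 3 it was -1.69 with an adjusted p of 0.0740, and without Cre 1 it was 0.060.

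Reln encodes reelin, a large secreted glycoprotein known for guiding neurons, which in liver is made by stellate cells. It had 41.7, 33.5 and 151 CPM in Cre 1, 2 and 3, against 38.4, 32.2 and 25.5 CPM in flox 1, 2 and 3. Cre 3 stood apart at 4.02 times the mean of the other Cre libraries, while Cre 1 lay just above the flox range and Cre 2 inside it. For Reln the log2 fold change was 1.24 ± 0.58 (95% interval -0.14 to 2.61), with an edgeR adjusted p of 0.179. Without Cre 3 it was 0.25 with an adjusted p of 0.438, so 1 library set most of the value.

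Ecm1, extracellular matrix protein 1, is a secreted protein that in mouse liver keeps latent TGF-beta from being activated. It had 131, 131 and 180 CPM in Cre 1, 2 and 3, against 168, 196 and 123 CPM in flox 1, 2 and 3. All Cre values lay inside the flox range, and the spread was the smallest of the 9 markers. Its log2 fold change of -0.14 ± 0.21 had the narrowest 95% interval among them, -0.65 to 0.36, with an edgeR adjusted p of 0.669, and it was 0.026 when scaled to library totals and -0.71 under stellate lineage scaling, which lies outside that interval. With TMM scaling the interval corresponds to a Cre level between 0.639 and 1.29 times that of flox.

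Colec11 encodes a soluble collectin that binds sugars on microbes and cells and starts the lectin pathway of complement. It had 4.36, 3.26 and 6.04 CPM in Cre 1, 2 and 3, against 2.94, 0.374 and 3.48 CPM in flox 1, 2 and 3. Flox 3 lay above Cre 2, and flox 2, with 13 counts (exact 95% Poisson interval 6.92 to 22.2), was far below the rest. Its log2 fold change was 1.002 ± 0.72 (95% interval -0.72 to 2.73), with an edgeR adjusted p of 0.362, and without flox 2 it was 0.52.

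Adamtsl2 encodes a secreted glycoprotein without protease activity that binds latent TGF-beta binding proteins and fibrillin, and it has been used to mark stellate cells near the central vein in mice. It had 1.98, 0.579 and 4.99 CPM in Cre 1, 2 and 3, against 4.73, 1.41 and 0.995 CPM in flox 1, 2 and 3. All flox values lay inside the Cre range, with Cre 3 and flox 1 high. Between the groups the log2 fold change was 0.08 ± 0.88 (95% interval -2.02 to 2.18), with an edgeR adjusted p of 0.958, and it was -0.86 without Cre 3 and -0.47 under stellate lineage scaling.

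**Figure D2:**
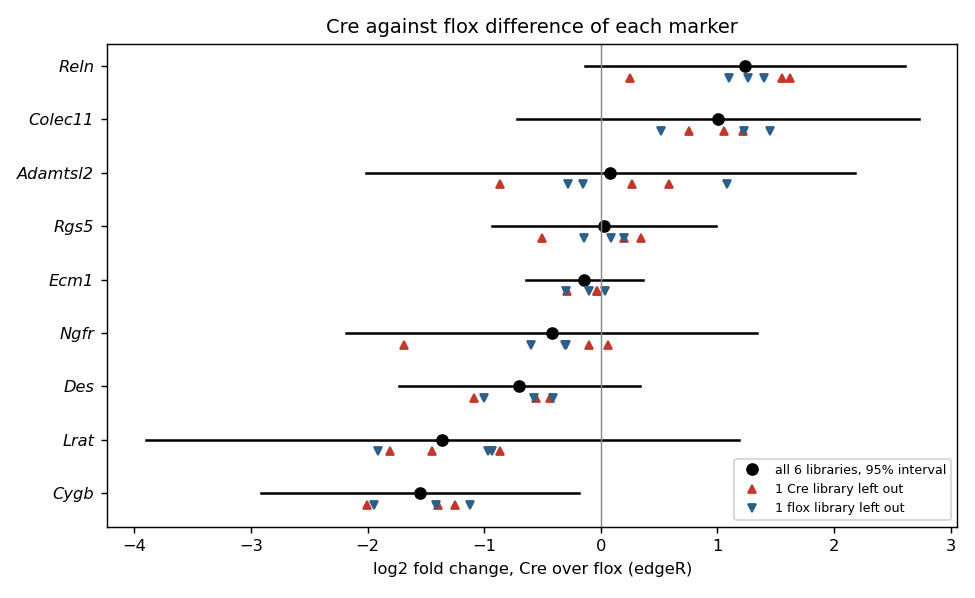
Log2 fold change, Cre over flox, of each marker by edgeR (horizontal axis). Black points are all 6 libraries with the 95% interval, red triangles are values with 1 Cre library left out and blue triangles values with 1 flox library left out. Only the interval of Cygb, from -2.91 to -0.19, lies wholly on one side of 0, and its adjusted p was 0.108.

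Set against each gene's own mean over the 6 libraries, the markers shared part of their profile. The mean deviation of the 9 markers, in log2 CPM, was -0.30, -0.80 and 0.80 in Cre 1, 2 and 3, against 0.72, 0.15 and -0.57 in flox 1, 2 and 3. Cre 3 and flox 1 were therefore the libraries with the highest marker levels, and Cre 2 and flox 3 those with the lowest. Cre 3 was above flox 3 for 9 of 9 markers, which was so for 49.99% of all tested genes, a contrast picked after the values had been seen. Leaving out both of these libraries, chosen for their marker values, called 5 of 9 markers, all lower, where 39.8% of all genes were called and 20.9% were called lower. A downward shift of the markers follows from that choice, so the count is given as a description.

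**Figure D3:**
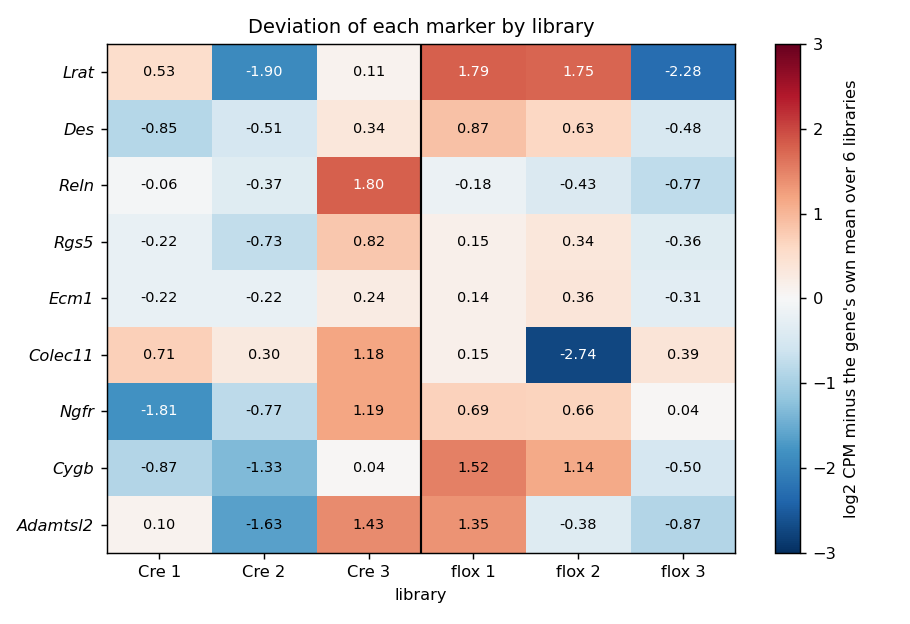
Deviation of each marker's log2 CPM from its own mean over the 6 libraries, by library, with the 3 Cre libraries left of the line and the 3 flox libraries right of it. Red is above and blue below the gene's mean, and each cell prints the value. Cre 3 is above the mean for 9 markers, and the strongest departures are Colec11 in flox 2 (-2.74) and Lrat in flox 3 (-2.28).

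Likeness of profiles was measured as the root mean square difference of these deviations over the 6 libraries, in log2 units. Among the markers the closest pair was Rgs5 and Ecm1 at 0.315, followed by Des and Ecm1 at 0.433, Des and Rgs5 at 0.463 and Des and Cygb at 0.492. Genes that vary little come close by this measure, and Ecm1 itself varied by 0.284 log2 units over all 6 libraries. Lrat and Colec11 were the farthest apart at 2.45, Lrat being lowest in flox 3 and Colec11 in flox 2. Among 11662 other genes, the nearest to Des was Emilin1, an elastic fibre glycoprotein, at 0.0933, with 61.6, 70.1 and 127 CPM in Cre 1, 2 and 3, against 168, 166 and 77.9 CPM in flox 1, 2 and 3. The nearest to Cygb was Sparcl1, a matricellular protein on the list of other quiescent stellate genes, at 0.163, with 3.58, 2.53 and 5.70 CPM in Cre and 22.3, 15.5 and 4.08 CPM in flox 1, 2 and 3. In both genes flox 1 and flox 2 were high and Cre 3 was the highest Cre library, as in their markers.

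Lama1, a laminin chain, came nearest to Reln at 0.143, and the cytokine gene Lif followed at 0.177. In both, Cre 3 stood apart, at 12.3 CPM for Lama1 and 76.1 CPM for Lif. Nt5e, an ecto-enzyme that makes adenosine, and Socs3, a cytokine signalling inhibitor, came nearest to Rgs5, at 0.146 and 0.176. Taf1b and Selenon came nearest to Ecm1, at 0.0521 and 0.0769. Il34, a cytokine on the same portal-side list as Ngfr, was the nearest to Ngfr at 0.497, with H2-M2 at 0.499. Adra1a and Plxdc1 lay nearest to Lrat at 0.601 and 0.614, Papln and Has2 to Colec11 at 0.362 and 0.460, and Thbs2 and Ccdc3 to Adamtsl2 at 0.400 and 0.461. The second neighbours of Des and Cygb were Bcl2a1d at 0.150 and Slc41a3 at 0.230. Bcl2a1d has close copies and Ccdc3 shares 69.1% of its exon bases with a neighbouring transcript, so their counts are uncertain. None of these 18 neighbours was itself called between Cre and flox, against 15.3% of all tested genes. They were picked for profiles like those of uncalled markers, so this follows largely from the choice.

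The cells carried the labelled type's markers with those of other cells. The 10 stellate lineage genes, such as Pdgfrb, Dcn and Hand2, were all tested and summed to 1923 to 2782 CPM in Cre and 973 to 1385 CPM in flox libraries, with 4 higher in Cre, 0 lower and a median log2 fold change of 0.63. Their mean log2 CPM was highest in Cre 3 (6.28) and lowest in flox 3 (4.94). These were the highest Cre and the lowest flox library for most of the 9 markers. By the sum, the lowest was instead flox 2 at 973 CPM, with flox 3 at 1093 CPM. Of all 6 libraries, flox 3 was the lowest for 3 of 9 markers. Gfap, another classical marker of quiescent stellate cells, had 2, 4 and 4 counts in Cre and 2, 2 and 0 counts in flox 1, 2 and 3 and was too low to test. The 18 macrophage and Kupffer cell genes summed to 3237 to 3980 CPM in Cre and 9379 to 27931 CPM in flox libraries, above the stellate lineage sum in each. Of them 0 were higher and 16 lower in Cre, with a median of -2.85, and flox 3 had the lowest flox level. Examples are Marco at 239 ± 99.1 CPM in Cre and 2308 ± 391 CPM in flox, and Cd5l at 271 ± 90.0 CPM in Cre and 3409 ± 1396 CPM in flox (SD, n = 3 each). No macrophage gene was at 0. Their part in the marker values was not tested.

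Other marker lists differed less by count. Of 14 endothelial genes 0 were higher and 2 lower (Aqp1 and Clec4g), with a median of 0.007. The 14 summed to 2870 to 4934 CPM in Cre and 1924 to 5250 CPM in flox libraries, above the stellate lineage sum in each. Of 10 mesothelial genes none was called, the median was 1.41 and the sums were 211 to 846 CPM in Cre and 180 to 265 CPM in flox libraries. Their mean log2 CPM was lower in Cre 3 (3.78) than in Cre 1 (5.45) or Cre 2 (5.74), opposite to the 9 markers. Among 14 tested hepatocyte genes 0 were called, with sums of 112 to 502 CPM in Cre and 232 to 723 CPM in flox libraries. Vascular smooth muscle genes, which mark the other contractile cells that express Des and Rgs5, summed to 67.6 to 81.6 CPM in Cre and 37.1 to 49.7 CPM in flox libraries, and 0 of 9 were called. Myocd and Pln, which also mark that type, were not found under these symbols in the count table and so were not analysed. Of the 10 tested portal fibroblast genes 1 was higher (Fbln2) and 0 lower, while the list's median was below 0, at -0.39. Of 8 cholangiocyte genes 1 was lower (Prom1), with a median of -0.21. Prom1 was near the floor, with 1, 4 and 3 counts in Cre 1, 2 and 3, against 18, 11 and 15 counts in flox 1, 2 and 3. Neural (2 tested), T and NK cell (11), B and plasma cell (6) and neutrophil (3) lists had 0, 0, 1 and 0 genes higher and 0, 0, 1 and 1 lower. Ly6g and Elane, which define neutrophils, had 0 counts in every library. The part of these cell types in the marker values was not tested.

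**Figure D4:**
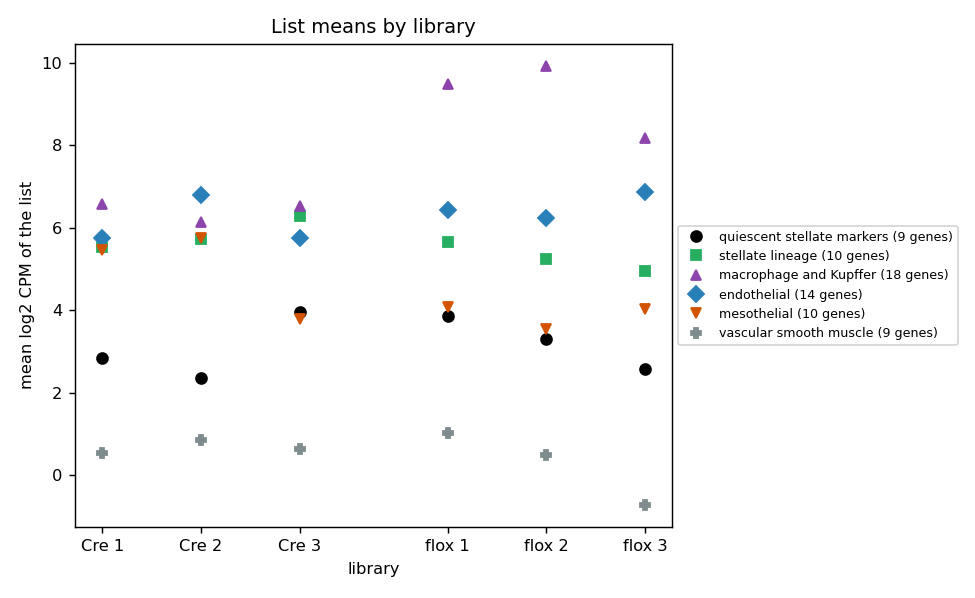
Mean log2 CPM of the tested genes of 6 lists (vertical axis) in each library, Cre left and flox right. The 9 quiescent stellate markers (black circles) and the stellate lineage genes (green squares) are highest in Cre 3 among the Cre libraries and lowest in flox 3 among the flox libraries, and the macrophage list (purple triangles) is higher in all flox than in all Cre libraries.

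Across the series the Cre libraries held 37273142, 39162245 and 39377787 counts, and the flox libraries 41006722, 38452088 and 39875268 counts. At these depths 3 counts equal 0.0732 to 0.0805 CPM. Bche, the gene of the deleted enzyme, had 15, 8 and 2 counts in Cre and 17, 6 and 21 counts in flox 1, 2 and 3, and because the labelled deletion is in hepatocytes this gene does not check the titles. edgeR called 940 genes higher and 1323 lower in Cre, which is 6.35% and 8.94% of those tested. The share of calls that were higher was 41.5%, against 57.0% with library totals and 9.62% with scaling to the stellate lineage list. Without Cre 1, without Cre 2, without flox 1 or without flox 2, edgeR called 0 genes, with 3593, 3978, 3720 and 3562 genes at an unadjusted p below 0.05.

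The genes around the markers were read from 13 lists of partners and related stellate genes, in which 23 genes were higher and 12 lower in Cre. All of these calls were absent in the 4 leave-outs that called 0 genes. Under stellate lineage scaling, which shifted the median of all tested genes by -0.56, 5 of the 23 higher calls and 12 of the 12 lower calls were kept. Cdh11, Cryab, Igfbp3 and Itgb8 were among the 5. Each of these named genes had its lowest Cre level in Cre 3, as the mesothelial list did. The part of mesothelial cells in their values was not tested. Under the same scaling 2 of the 9 markers were called, both lower, Des at -1.27 (adjusted p 0.0282) and Cygb at -2.08 (adjusted p 6.29e-05), where 15.7% of all genes were called and 14.2% were called lower. That scaling sets the stellate lineage level equal between groups by construction.

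Other quiescent stellate genes were mixed. Of 20 tested, 3 were higher and 1 lower in Cre, with a median log2 fold change of 0.21. Steap4, a metalloreductase, averaged 80.2 ± 1.48 CPM in Cre and 38.5 ± 5.34 CPM in flox libraries (log2 fold change 1.06). Dcn, the proteoglycan decorin, was higher by 1.22 and Sod3, extracellular superoxide dismutase, by 1.23 on the log2 scale. Pparg, an adipogenic nuclear receptor known for holding stellate cells in the storing state, was lower, at 3.73 ± 0.411 CPM in Cre and 18.3 ± 9.05 CPM in flox libraries (log2 fold change -2.29, edgeR adjusted p 0.0258). Macrophages also express Pparg, and the macrophage genes were lower in the same libraries; their part in this result was not tested.

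Retinoid and lipid storage genes around Lrat had 0 higher and 6 lower of 21 tested, with a median of -0.55. Of all tested genes, 6.35% were called higher and 8.94% lower. The list was not uniform: Aldh1a1, Aldh1a2 and Rdh10 had log2 fold changes of 1.74, 1.57 and 0.91 and were not called. The droplet coat gene Plin2 averaged 725 ± 74.5 CPM in Cre and 1593 ± 355 CPM in flox libraries (SD, n = 3 each; log2 fold change -1.14, edgeR adjusted p 0.0247). Log2 fold changes were -0.82 and -1.06 for the lipases Pnpla2 and Lipe, -1.08 for the retinoid receptor Rxra, -0.64 for the retinal reductase Dhrs3 and -1.53 for Cyp26b1, which breaks down retinoic acid. The Cre and flox values did not overlap, in either direction, in 14 of the 21 tested genes, against 39.6% of all tested genes. The 6 called ones were among them, and so were Aldh1a2, Rdh10 and Rarg, in which Cre was higher. The values of Lrat overlapped. Plin2, Rxra and Lipe are expressed by many cell types, including macrophages, and the part of the lower macrophage genes in these values was not tested.

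Around Des, 1 of 9 tested intermediate filament genes was higher, Cryab, the chaperone of desmin, at 530 ± 190 CPM in Cre and 160 ± 35.0 CPM in flox libraries (log2 fold change 1.72, edgeR adjusted p 0.0248). Cryab shares 252 exon bases with Hspb2. The list's median was 0.28. Around Reln, 3 of 10 tested genes of the reelin pathway were higher and 0 lower, with a median of 0.35. Both reelin receptors were among them, Vldlr at 15.1 ± 5.19 CPM in Cre and 4.64 ± 1.63 CPM in flox (log2 fold change 1.696), and Lrp8 at 9.68 ± 0.239 CPM in Cre and 5.73 ± 0.741 CPM in flox (0.75). Itga3, an integrin chain, was higher by 1.34. Dab1, the intracellular adaptor of the pathway, had 1 count in all libraries together.

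Around Rgs5, 1 of 12 tested genes was higher and 1 lower, with a median of -0.29. Gnai1, a Gi subunit, was higher by 1.24. Rgs2, a regulator of Gq signalling, was lower at 5.02 ± 2.30 CPM in Cre and 50.2 ± 36.6 CPM in flox libraries (log2 fold change -3.32, edgeR adjusted p 0.0302). The macrophage genes were lower in the same libraries, and their part in the Rgs2 value was not tested. Around Ngfr, 3 of 11 tested genes were higher and 0 lower, with a median of 0.75: Maged1 by 1.02 and Bex3 by 0.75, which encode proteins that bind this receptor, and Sorcs2, a co-receptor for pro-neurotrophins, by 1.81.

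Around Ecm1 and Adamtsl2, 4 of 15 tested latent TGF-beta genes were higher and 2 lower, with a median of 0.03. The higher ones were Thbs1, an activator of latent TGF-beta (1.13), the binding proteins Ltbp1 (1.14) and Ltbp2 (1.22), and Itgb8, an integrin chain that activates latent TGF-beta (2.19). The ligand Tgfb1 and the receptor Tgfbr2 were lower, with log2 fold changes of -0.88 and -0.98. Tgfb1 had 117, 119 and 179 CPM in Cre 1, 2 and 3, against 270, 291 and 203 CPM in flox 1, 2 and 3. The Cre range of Tgfb1 lay below the flox range, with Cre 3 and flox 3 nearest to each other. The part of the lower macrophage genes in the Tgfb1 and Tgfbr2 values was not tested. Of the ADAMTS-like relatives of Adamtsl2, 0 of 7 were called and the median was 0.49. The pair of lowest p were Thsd4 and Papln, with log2 fold changes of 1.603 and 1.46 and edgeR adjusted p of 0.0658 and 0.116.

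Around Colec11, 0 of 9 tested genes were higher and 1 lower, with a median of -0.30. The lower gene was Fcna, a ficolin made by macrophages, at 35.9 ± 16.3 CPM in Cre and 230 ± 33.8 CPM in flox libraries (log2 fold change -2.67, edgeR adjusted p 0.0237). Around Cygb, 0 of 9 were higher and 1 lower, Nos1, a nitric oxide synthase, at 0.451 ± 0.0996 CPM in Cre and 2.17 ± 1.15 CPM in flox (log2 fold change -2.26), and the median was -0.11. The portal-side list that holds Ngfr had 1 of 6 genes higher, Igfbp3 (1.64, median 0.56), and the central-side list that holds Adamtsl2 had 1 of 6 higher, Loxl1 (1.25, median 0.39). Of 23 tested stellate activation genes 8 were higher and 0 lower, with a median of 0.82. Lox, Loxl1, Timp1, Thbs1, Cdh11, Fn1 and Vcan were among them, with log2 fold changes between 1.06 for Vcan and 2.38 for Cdh11. Acta2, the smooth muscle actin used to score activation, did not pass, with an adjusted p of 0.0696 and a log2 fold change of 0.99.

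**Figure D5:**
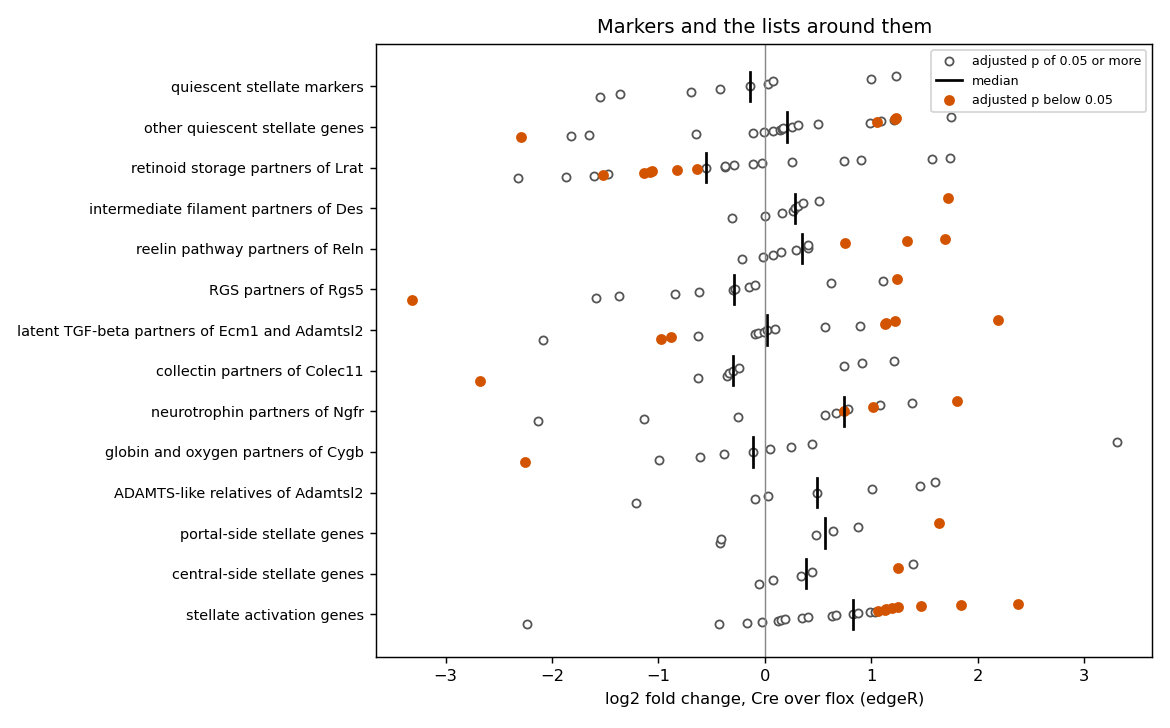
Log2 fold change, Cre over flox (horizontal axis), of every tested gene of the 9 markers and of the 13 lists around them, 1 row per list. Filled orange points passed an adjusted p of 0.05, open points did not, and vertical bars are list medians. The marker row holds no filled point, the retinoid row holds 6 to the left of 0 and the activation row 8 to the right.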

How the data were processed

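Gene expression was measured by RNA sequencing, with libraries made from total RNA with a SMARTER mRNA kit, per the labels' protocols. The authors deposited raw counts per gene symbol and FPKM values for the same 6 libraries, and 0 per-sample columns were left unused. The deposited FPKM of 11560 genes, those above 50 counts in every library, equalled the count over library total and 1 length per gene (tolerance 1e-06). GRCm38, mm10 and hg38 appear in the submitters' processing notes without a stated role. The aligner, the counter and the strand setting were not given in the sources used here.

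The titles gave each library's group and replicate number. The test was that of edgeR 4.0.16 (R 4.3.3) on the counts: filterByExpr (minimum count 10, minimum total 15) kept 14795 genes and removed 8171, TMM scaling and the quasi-likelihood F-test (two-sided, no covariate) followed, with Benjamini-Hochberg adjustment over all genes tested and calls below 0.05. CPM values are TMM-normalised unless given as counts. Standard errors were derived as the size of the log2 fold change over the square root of F. With 3 libraries against 3, the smallest p of an exact permutation test is 0.1, and none was run. Alternatives were DESeq2 1.42.0, limma 3.58.1 (voom, and trend on log2(FPKM + 1) or log2(FPKM + 0.1)), other scalings and filters, other thresholds, a replicate block and each library left out. The fits were tested on simulated data.

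The markers, the 13 partner lists and the 12 cell marker lists were chosen with earlier results of these data known. The text names all markers, from each list the genes past the test (up to 8 of lowest p) or otherwise 2 of lowest p, for each marker the 2 genes nearest in profile (average log2 CPM of at least 1, predicted genes left out), and by choice after their values were seen Acta2 and some of the genes too low to test. A few genes that this rule names are not reported here. No pair of libraries within a group was alike to within sampling noise, the lowest chi-square per gene being 33.5.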

Additional observations from a re-analysis of the deposited data

How the results depend on the processing

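Lrat, Des, Reln, Colec11 and Cygb kept the sign of their log2 fold change under every alternative that could be fitted. With a mean FPKM of at least 1, Lrat, Ngfr and Adamtsl2 were not fitted. Rgs5 turned negative under stellate lineage scaling (-0.62), limma-voom (-0.084) and the replicate block (-0.10), and ran from -0.51 (without Cre 3) to 0.34 with 1 library left out, with -0.14 without flox 3. Adamtsl2 turned negative in the same settings (-0.47, -0.071 and -0.17), and ran from -0.86 (without Cre 3) to 1.08, with -0.15 without flox 2 and -0.29 without flox 3. Ecm1 turned positive, at 0.026 with library totals, 0.026 with limma-trend on log2(FPKM + 1) with and without the mean filter, 0.027 on log2(FPKM + 0.1) and 0.035 without flox 2. Ngfr turned positive without Cre 1 (0.060). Mbp ran from -0.17 (without flox 3) to 0.46 with 1 library left out, with -0.10 without Cre 2, and was -0.28 under stellate lineage scaling. Mmp8 ran from -0.82 to 0.19 (without flox 2) and was 0.026 on log2(FPKM + 0.1).

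The count of markers called was 0 of 9, and 2 (both lower) under stellate lineage scaling, 1 (lower) with DESeq2 and 0 to 1 with 1 library left out. Over all genes, 2263 calls (940 higher, 1323 lower) became 4334 (1976 and 2358) with DESeq2, 1404 (578 and 826) with limma-voom, 3986 (1826 and 2160) at a threshold of 0.1, 0 (0 and 0) at 0.01, and 0 to 5329 (0 to 2447 higher, 0 to 2882 lower) with 1 library left out. Calls higher were 1415 with library totals and 224 under stellate lineage scaling, where 2104 were lower. Of the 12 lower and 23 higher calls on the partner lists, 6 and 15 were kept with limma-voom and 5 and 13 without Cre 3. Under stellate lineage scaling the medians of 7 partner lists that had been above 0 were below it.

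Same-numbered Cre and flox libraries did not deviate together (correlations of -0.035, -0.098 and -0.054). The labels do not say if the numbers pair libraries, and correlations over all genes with 3 libraries per group cannot decide it. With the replicate block 0 genes (0 higher, 0 lower) and 0 markers were called, with 4296 genes at an unadjusted p below 0.05. Leaving out Cre 3 and flox 3 together, added after the data were seen, gave 5991 calls (2839 higher, 3152 lower), 5 of them markers, with Rgs5 at -0.71, Ecm1 at -0.48, Ngfr at -1.90 and Adamtsl2 at -1.27. Depth limits Lrat and Colec11 most, whose lowest libraries held 5 and 13 counts. The cause of these changes was not tested.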
